A study of Mus musculus with 24 samples.

Results

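A chosen list of 8 genes, among the 17301 in the deposited table, codes for carriers of glucose or lactate and for enzymes that set the pace of glycolysis. They were found by their mouse symbols through the Ensembl identifiers, and all 8 of the listed genes were present. The glucose transporters were Slc2a1 (GLUT1), Slc2a3 (GLUT3) and Slc2a6 (GLUT6), the lactate transporters were Slc16a1 (MCT1) and Slc16a3 (MCT4), and the enzymes were Pfkfb2, Pfkfb3 and Pfkfb4. Of these, 7 passed the filter on low values and were tested. Pfkfb2 did not pass it.

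Transporters of the Slc2a family let glucose flow down its gradient into the cell, where glycolysis turns it into pyruvate and lactate. Slc16a transporters move lactate together with a proton, and Slc16a3 is best known for lactate export from highly glycolytic cells. The bifunctional Pfkfb enzymes make and break a fructose bisphosphate that activates phosphofructokinase, an early control point of glycolysis. Neutrophils and inflammatory monocytes are known as strongly glycolytic cells, and the mRNA of Slc2a1, Slc16a3 and Pfkfb3 is known to rise in hypoxia.

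RNA was sequenced from 4 sorted myeloid populations in each of 2 tissues, with 3 libraries per group and 24 in all. The tissues were colon lamina propria (LP) of C57BL/6J mice and colon tumours of ApcMin/+ mice, a strain heterozygous for a truncating allele of Apc that is prone to intestinal tumours. The populations were F4/80hi MHCIIhi macrophages, F4/80hi MHCIIlow macrophages (hereafter MHCIIhi and MHCIIlow), Ly6Chi MHCII- monocytes, and Ly6Ghi F4/80- CD11b+ neutrophils. Per the study's methods, tissue of 13 to 15 mice of both sexes, aged 3 to 4 months, was pooled for a library, and the tumour-bearing mice had received dextran sodium sulphate. Those methods describe that agent for control mice too, at another concentration, whereas the labels call the LP healthy, so the treatment of the LP donors is not settled here. Tumours and LP were also digested by different procedures, so tissue, genotype and procedure cannot be told apart in any comparison of tumour with LP.

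Libraries held 12.8 to 41.7 M reads on genes. Macrophage markers (Adgre1, C1qa and others) summed to 3426 to 7343 RPKM in macrophages and to 185 to 726 RPKM in the other cells. Neutrophil markers (S100a8, Retnlg and others) summed to 11604 to 15083 RPKM in LP neutrophils and 21654 to 30625 RPKM in tumour neutrophils. Elsewhere they summed to at most 301 RPKM. Monocyte markers (Ly6c2, Ccr2 and others) summed to 769 to 1169 RPKM in LP monocytes and 2617 to 3173 RPKM in tumour monocytes. They summed to at most 21.1 RPKM in macrophages, but also to 644 to 1281 RPKM in neutrophils. Whether the sorted cells differed in purity or state between the tissues was not tested. RPKM, the deposited scale after undoing the log2, is reads per kilobase of gene and per M of a rescaled library size. Levels of different genes within a library can thus be set side by side, whereas levels between libraries depend on the scaling.

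The windows around the gene starts are shown for 4 members. Slc2a1, Slc16a3 and Pfkfb3 were called higher in tumour than in LP in some population, and Pfkfb3 was also called lower in neutrophils. Slc16a1 was called lower in neutrophils alone, a call that rests on a library with 2 reads. Each runs from 250 bases before a start to 50 bases after it on the gene's own strand, from RefSeq (GRCm38.p6). Capitals mark the core of the site bound by hypoxia-inducible factors, ACGTG or GCGTG on either strand. Runs of CACGTG hold the core on both strands, as 2 overlapping matches.
Slc2a1, plus strand, chr4:119108495-119108794: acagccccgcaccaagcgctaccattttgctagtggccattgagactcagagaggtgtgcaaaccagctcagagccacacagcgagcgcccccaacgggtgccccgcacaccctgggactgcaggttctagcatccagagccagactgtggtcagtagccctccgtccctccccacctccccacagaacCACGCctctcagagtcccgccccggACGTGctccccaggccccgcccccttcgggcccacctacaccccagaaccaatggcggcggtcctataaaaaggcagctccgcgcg
Slc16a3, plus strand, chr11:120948817-120949116: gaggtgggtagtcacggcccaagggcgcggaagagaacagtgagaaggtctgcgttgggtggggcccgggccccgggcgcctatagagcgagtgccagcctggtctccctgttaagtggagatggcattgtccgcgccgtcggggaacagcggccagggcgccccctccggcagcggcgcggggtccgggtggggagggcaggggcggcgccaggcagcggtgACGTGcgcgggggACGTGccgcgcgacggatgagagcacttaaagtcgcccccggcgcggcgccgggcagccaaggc
Pfkfb3, minus strand, chr2:11502041-11502340: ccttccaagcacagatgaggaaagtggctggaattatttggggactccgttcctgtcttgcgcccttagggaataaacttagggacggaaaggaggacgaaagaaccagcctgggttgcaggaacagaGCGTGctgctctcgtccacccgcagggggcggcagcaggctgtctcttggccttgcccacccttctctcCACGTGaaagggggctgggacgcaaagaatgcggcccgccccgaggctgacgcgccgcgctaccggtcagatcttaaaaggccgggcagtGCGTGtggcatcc
Slc16a1, plus strand, chr3:104638414-104638713: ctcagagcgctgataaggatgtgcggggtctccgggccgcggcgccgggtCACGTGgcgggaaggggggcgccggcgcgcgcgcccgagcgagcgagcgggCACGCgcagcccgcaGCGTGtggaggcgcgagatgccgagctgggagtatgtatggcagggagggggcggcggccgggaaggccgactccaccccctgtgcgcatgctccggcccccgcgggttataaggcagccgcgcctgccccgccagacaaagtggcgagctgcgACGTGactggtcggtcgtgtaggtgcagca

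These windows held 2 matches for Slc2a1, 2 for Slc16a3, 4 for Pfkfb3 and 5 for Slc16a1. The Pfkfb3 window shown belongs to a start inside the annotated gene, and the window at the gene's outer 5′ end (chr2:11553880-11554179) held 1 match. The table had windows for 7 members, 10 windows in all, and each of the 10 held a match, against 43.8% of all windows of the same length. Some windows of Pfkfb2 overlap each other. By gene, all 7 members with a window held a match, against 46.7% of all genes with a window. Both shares cover all windows or all genes with a window, not matched to the members for base composition or expression. Whether the members are enriched for the core was not tested, nor was binding at these sites. The Slc2a1 gene lies at chr4:119108711-119137983, Slc16a3 at chr11:120948480-120960868, Pfkfb3 at chr2:11471433-11554077 and Slc16a1 at chr3:104638668-104658462. The other members, all annotated as protein coding, were Slc2a3 at chr6:122727809-122801640, Slc2a6 at chr2:27021363-27027998, Pfkfb2 at chr1:130689182-130729253 and Pfkfb4 at chr9:108991778-109032228 (GENCODE M21, GRCm38).

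**Figure D1:**
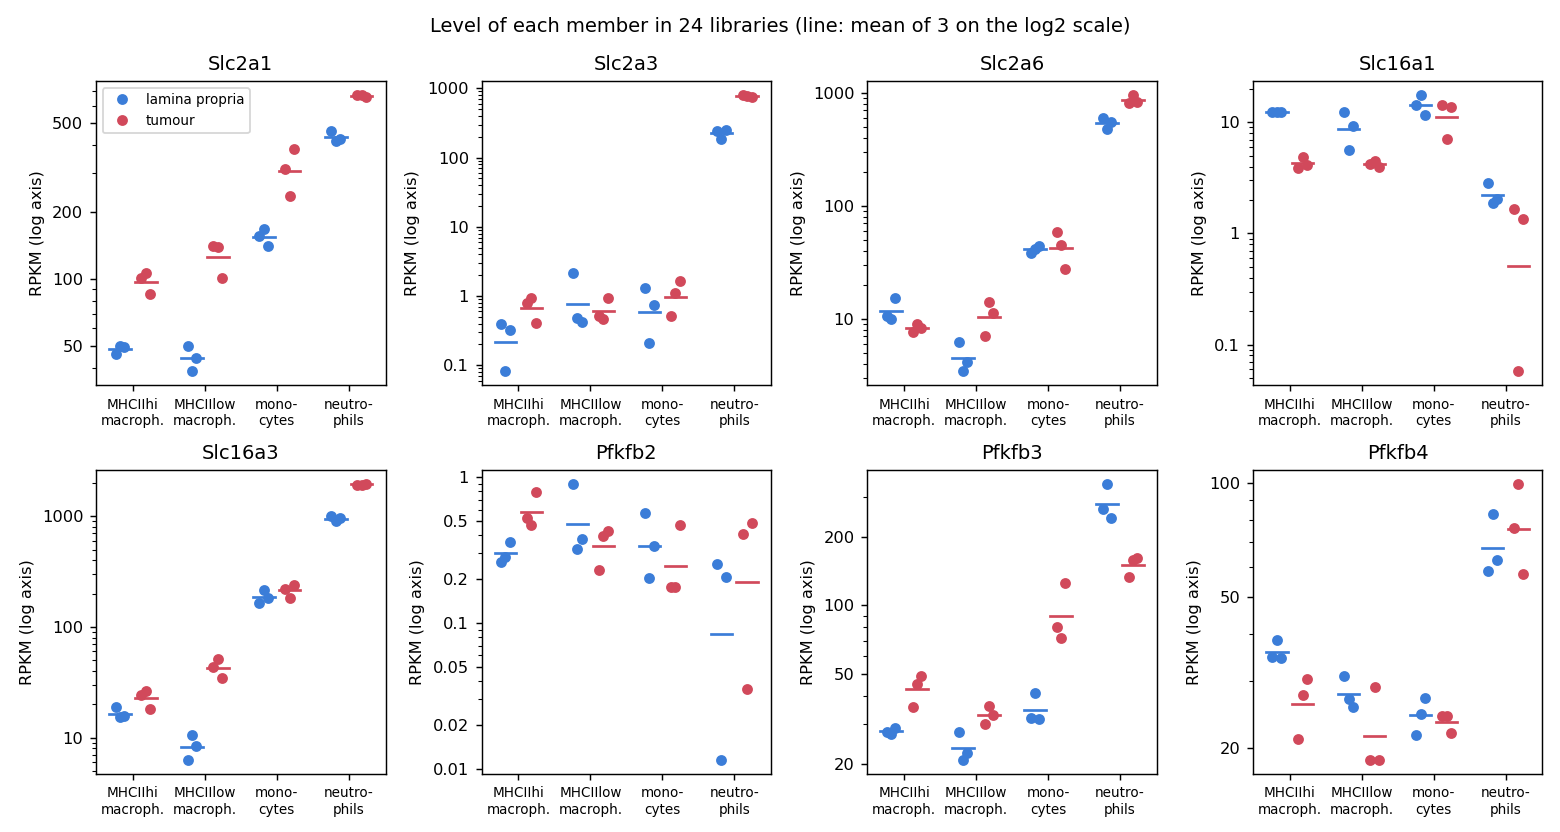
RPKM (log axis, a different range in each panel) of the 8 members in the 24 libraries, by sorted population, with LP libraries in blue and tumour libraries in red, 1 point per library and a line at the mean of 3 on the log2 scale. Slc2a3 sits between 183 and 805 RPKM in neutrophils and at or below 2.17 RPKM in every other library, whereas Slc16a1 is lowest in neutrophils.

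Slc2a1, the widely used carrier of basal glucose uptake, was higher in tumour than in LP in each of the 4 populations. Values are given in the order of the pool numbers of the libraries, and since each is a mean over sorted cells, more cells with the transcript and more transcript per cell cannot be told apart. In MHCIIhi macrophages the LP libraries had 46.2, 49.9 and 49.3 RPKM and the tumour libraries 101, 107 and 85.3 RPKM. In MHCIIlow macrophages the LP libraries had 49.8, 38.5 and 44.4 RPKM and the tumour libraries 140, 139 and 101 RPKM. No tumour macrophage library came down to the level of an LP macrophage library. In monocytes the LP libraries had 156, 167 and 140 RPKM and the tumour libraries 311, 236 and 384 RPKM. In neutrophils, where the gene was highest, LP libraries had 465, 417 and 426 RPKM and tumour libraries 668, 672 and 657 RPKM. Tumour and LP did not overlap in either of these populations.

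The log2 fold change of Slc2a1 was 1.01 (SE 0.16, adjusted p = 0.000107) in MHCIIhi macrophages and 1.51 (SE 0.16, adjusted p = 7.68e-07) in MHCIIlow macrophages. In monocytes it was 0.98 (SE 0.16, adjusted p = 0.000431). Over the alternatives tried, these 3 calls were made in 18 of 18 each. In neutrophils the log2 fold change was 0.61 (SE 0.16, adjusted p = 0.00542), and the call was lost with quantile normalization (0.29, adjusted p = 0.168), with library sizes as summed reads (0.14, adjusted p = 0.415) and with arrayWeights (0.60, adjusted p = 0.0604). The effect in MHCIIlow minus that in MHCIIhi macrophages was 0.51 (95% interval 0.04 to 0.97, adjusted p = 0.327), and neutrophils minus monocytes was -0.37 (95% interval -0.83 to 0.09, adjusted p = 0.327).

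Markers of epithelial cells, which also use Slc2a1, moved with tissue in part. All 8 of the list (Epcam, Krt8 and others) were in the table. Their summed level was 119 to 369 RPKM in tumour monocytes against 20.4 to 153 RPKM in LP monocytes, and 176 to 359 RPKM in tumour neutrophils against 16.7 to 74.3 RPKM in LP neutrophils. The order of libraries by this sum and by Slc2a1 differed between groups. Among tumour monocytes the library with the highest sum, pool II, had the lowest Slc2a1 level. In tumour MHCIIlow macrophages the sum was 231 RPKM in pool I, 16.2 RPKM in pool V and 33.8 RPKM in pool VII. Pool I also had the highest Slc2a1 level, 140 RPKM against 139 and 101 RPKM. Without pool I the log2 fold change of Slc2a1 was 1.43 (adjusted p = 9.21e-06). In tumour MHCIIhi macrophages the sum was 10.2 to 73.4 RPKM against 6.49 to 18.5 RPKM in LP, and pool VII was lowest for both the sum and Slc2a1. LP MHCIIlow macrophages had a sum of 25.9 to 30.6 RPKM. The part of epithelial RNA in the values of any population was not tested. Fibroblast markers (Col1a1, Dcn and others, 6 genes) went the other way, at 6.83 to 62.0 RPKM in LP groups and at most 1.57 RPKM in tumour groups. Markers of B and plasma cells (5 genes) were also higher in LP, at 156 to 571 RPKM in LP monocytes against 0.182 to 4.67 RPKM in tumour monocytes, and at 356 to 1288 RPKM in LP neutrophils against 0.65 to 19.8 RPKM in tumour neutrophils. The part of these cells in any tumour against LP value of monocytes and neutrophils was not tested.

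Slc2a3, a high-affinity glucose carrier known from neurons and leukocytes, was abundant in neutrophils alone among the 4 populations. In LP neutrophils it had 244, 183 and 254 RPKM, and in tumour neutrophils 805, 772 and 759 RPKM. Every tumour library exceeded every LP library. The log2 fold change was 1.79 (95% interval 0.35 to 3.23) and missed the threshold (adjusted p = 0.0528). The limma fit takes 1 spread per gene over the 8 groups, and the SD on the log2 scale was 0.04 and 0.26 in the neutrophil groups and 0.55 to 1.36 in the others. With only the neutrophil libraries in the fit the same change had an adjusted p of 0.00235, and 6 of 17 alternatives called it. Outside neutrophils the 18 libraries lay between 0.0821 and 2.17 RPKM. The library at 2.17 RPKM, pool II of LP MHCIIlow macrophages, stood apart from the other two of its group at 0.475 and 0.423 RPKM. Tumour against LP gave log2 1.62 in MHCIIhi macrophages (adjusted p = 0.112), -0.31 in MHCIIlow macrophages (adjusted p = 0.808) and 0.73 in monocytes (adjusted p = 0.603). Without pool II, the value in MHCIIlow macrophages was 0.45 (adjusted p = 0.735).

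Slc2a6, a glucose carrier of intracellular membranes in leukocytes, separated the macrophage subsets in LP. Among LP macrophages it had 10.5, 9.91 and 15.1 RPKM in MHCIIhi and 6.26, 3.43 and 4.17 RPKM in MHCIIlow libraries. In tumours it had 7.66, 9.05 and 8.20 RPKM in MHCIIhi and 7.05, 14.0 and 11.2 RPKM in MHCIIlow libraries. The subsets were apart in LP and overlapped in tumours. Slc2a6 was higher in tumour than in LP in MHCIIlow macrophages (log2 fold change 1.21, SE 0.26, adjusted p = 0.00184), and with only those 6 libraries in the fit the adjusted p was 0.066. In MHCIIhi macrophages the change was -0.49 (adjusted p = 0.215). The difference of the effects was 1.70 (SE 0.37, adjusted p = 0.0246). That call was lost when any 1 of 4 libraries was left out, with values of 1.48 to 1.69 and adjusted p of 0.0537 to 0.0797: LP MHCIIhi V, tumour MHCIIhi I or VII, and tumour MHCIIlow V. With only the 12 macrophage libraries in the fit the adjusted p was 0.101.

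In monocytes Slc2a6 had 38.0, 41.2 and 44.4 RPKM in LP and 58.8, 45.0 and 27.8 RPKM in tumours, so that the groups overlapped (log2 fold change 0.03, adjusted p = 0.973). In neutrophils it had 592, 480 and 554 RPKM in LP and 805, 958 and 822 RPKM in tumours. The neutrophil groups did not overlap on the deposited scale, and the log2 fold change of 0.67 (SE 0.26) missed the threshold (adjusted p = 0.0556). Over the alternatives its adjusted p ran from 0.0106 to 0.571, and 5 of 17 called it.

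Slc16a3, the lactate exporter, showed the largest macrophage difference among the members. In LP MHCIIlow macrophages it had 6.29, 10.5 and 8.33 RPKM, and in tumour MHCIIlow macrophages 43.6, 51.4 and 34.9 RPKM. The tumour libraries were all above the LP libraries, by 5.22-fold on average (log2 fold change 2.38, SE 0.18, adjusted p = 2.12e-08). In MHCIIhi macrophages the LP libraries had 18.8, 15.3 and 15.7 RPKM and the tumour libraries 24.5, 26.4 and 18.1 RPKM. Here the groups overlapped through tumour pool VII, and the change of 0.46 (SE 0.18) missed the threshold (adjusted p = 0.0833). Without that library it was 0.62 (adjusted p = 0.0312).

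The effect on Slc16a3 was larger in MHCIIlow than in MHCIIhi macrophages by 1.92 on the log2 scale (SE 0.26, adjusted p = 0.000616), a call made in 25 of 25 alternatives. The order of the subsets was opposite in the tissues. In LP, MHCIIlow macrophages had less Slc16a3 than MHCIIhi macrophages in every library (log2 fold change -1.01, SE 0.18, adjusted p = 0.00131). In tumours they had more in every library (0.91, SE 0.18, adjusted p = 0.0188). The tumour call was lost without tumour MHCIIhi VII (0.75, adjusted p = 0.0907) or tumour MHCIIlow V (0.78, adjusted p = 0.0995), and with only the 6 libraries compared (adjusted p = 0.27). The LP call was lost with only the 6 libraries compared (adjusted p = 0.0564).

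**Figure D2:**
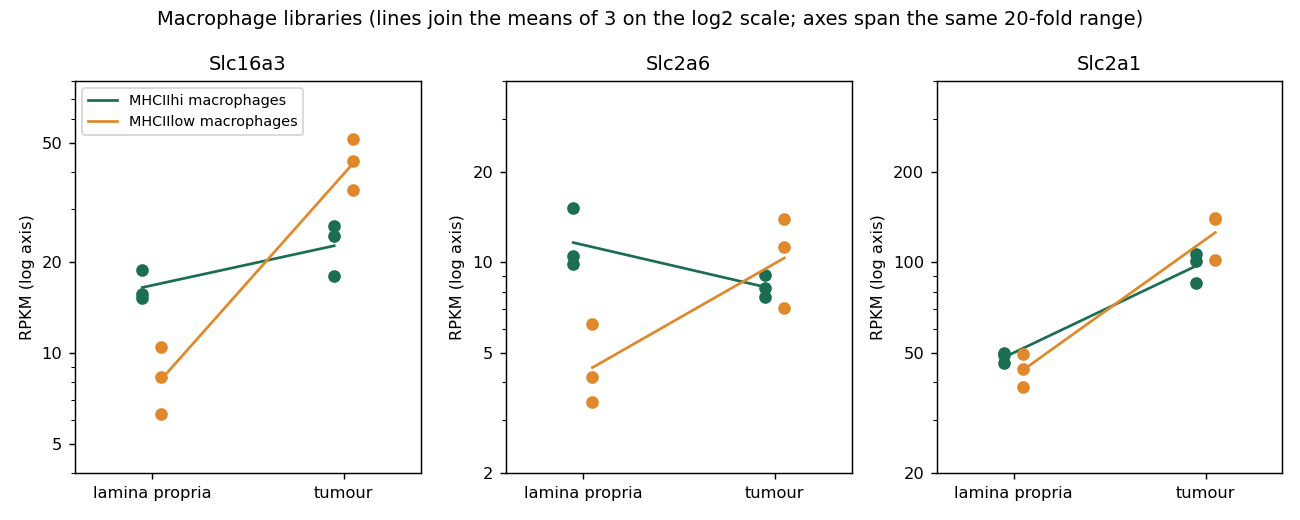
RPKM (log axes of equal span) of Slc16a3, Slc2a6 and Slc2a1 in the 12 macrophage libraries, MHCIIhi in green and MHCIIlow in orange, with lines between the means of 3 libraries on the log2 scale. The Slc16a3 lines cross, from 8.33 against 15.7 RPKM in the middle libraries of LP to 43.6 against 24.5 RPKM in those of tumours, and both Slc2a1 lines rise.

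In monocytes Slc16a3 had 165, 216 and 184 RPKM in LP and 221, 183 and 240 RPKM in tumours, overlapping groups (log2 fold change 0.19, 95% interval -0.19 to 0.57, adjusted p = 0.608). Neutrophils had the highest levels of any member, with 999, 899 and 956 RPKM in LP and 1929, 1925 and 1971 RPKM in tumours. Tumour neutrophils were higher in every library (log2 fold change 1.03, SE 0.18, adjusted p = 0.00023), and with quantile normalization the change was 0.50 (adjusted p = 0.0593). The tumour effect in neutrophils exceeded that in monocytes by 0.84 (SE 0.26, adjusted p = 0.0442), but only 10 of 24 alternatives called it, and with quantile normalization it was 0.44 (adjusted p = 0.372). The mean tumour effect of both macrophage subsets exceeded that of monocytes by 1.23 (SE 0.22, adjusted p = 0.00111). That mean joined unlike effects, 2.38 in MHCIIlow and 0.46, not called, in MHCIIhi macrophages.

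Slc16a1, the carrier that moves lactate in either direction in most tissues, was lower in tumour than in LP libraries of 3 populations. In MHCIIhi macrophages it had 12.4, 12.5 and 12.4 RPKM in LP and 3.91, 4.91 and 4.15 RPKM in tumours. In MHCIIlow macrophages it had 12.4, 5.64 and 9.26 RPKM in LP and 4.25, 4.47 and 3.93 RPKM in tumours. Neither pair of groups overlapped. The log2 fold changes of -1.53 (95% interval -3.12 to 0.06, adjusted p = 0.179) and -1.04 (95% interval -2.63 to 0.55, adjusted p = 0.366) nevertheless missed the threshold. Tumour neutrophils, which share the spread of the fit, had 1.67, 0.0575 and 1.36 RPKM, an SD of 2.72 on the log2 scale against at most 0.57 in any other group. Pool II among them held 2 reads of the gene, under the floor of 3 reads, against 92 and 46 reads in the other two. In a fit without that library, chosen after seeing the data, Slc16a1 fell in MHCIIhi (-1.53, adjusted p = 0.000609) and MHCIIlow macrophages (-1.04, adjusted p = 0.00988).

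LP neutrophils had 2.84, 1.88 and 2.03 RPKM of Slc16a1, all above the tumour neutrophils (log2 fold change -2.13, SE 0.76, adjusted p = 0.0375). That call rests on pool II of tumour neutrophils: without it the change was -0.56 (adjusted p = 0.196). It was also lost without any 1 of the 3 LP neutrophil libraries (-2.25 to -1.95, adjusted p = 0.0594 to 0.103), with quantile normalization (adjusted p = 0.0839), median centring (0.0626), voom (0.144) and only the libraries compared (0.341), so that 9 of 17 alternatives called it. In monocytes Slc16a1 had 14.3, 17.7 and 11.7 RPKM in LP and 14.2, 7.13 and 13.8 RPKM in tumours, which overlapped (-0.36, adjusted p = 0.846).

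Pfkfb3, the family member with the highest kinase activity and so the one that most favours glycolytic flow, moved in opposite directions in monocytes and neutrophils. In monocytes it had 31.8, 41.0 and 31.8 RPKM in LP and 80.4, 71.8 and 126 RPKM in tumours. In neutrophils it had 265, 344 and 242 RPKM in LP and 133, 158 and 162 RPKM in tumours. The tissues did not overlap in either population. The log2 fold change was 1.38 (SE 0.19, adjusted p = 8.67e-05) in monocytes and -0.90 (SE 0.19, adjusted p = 0.00104) in neutrophils. The effect in neutrophils minus that in monocytes was -2.27 (SE 0.26, adjusted p = 4.27e-05), and it was called in 24 of 24 alternatives. The fall in neutrophils was called in 17 of 17 and the rise in monocytes in 18 of 18.

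In macrophages Pfkfb3 differed less. MHCIIhi macrophages had 27.6, 27.2 and 29.0 RPKM in LP and 35.7, 45.1 and 48.7 RPKM in tumours, and MHCIIlow macrophages had 27.8, 20.9 and 22.4 RPKM in LP and 30.2, 35.9 and 32.9 RPKM in tumours. Tumour libraries were above LP libraries in both subsets. The change was 0.62 in MHCIIhi (SE 0.19, adjusted p = 0.0234) and 0.48 in MHCIIlow macrophages (SE 0.19, adjusted p = 0.0678). The MHCIIhi call was lost in 6 of 18 alternatives: without LP III, IV or V, without tumour V or VII (0.52 to 0.64, adjusted p = 0.0503 to 0.105), and with libraries centred on their median (0.56, adjusted p = 0.0663). Without LP MHCIIlow II the MHCIIlow change was 0.60 (adjusted p = 0.044). The mean effect in macrophages minus that in monocytes was -0.83 (SE 0.23, adjusted p = 0.0254), not called without LP monocytes III (-0.77, adjusted p = 0.0745) or V (-0.77, adjusted p = 0.0744) or tumour monocytes V (-0.58, adjusted p = 0.0954), nor with summed reads as library sizes (-0.60, adjusted p = 0.124).

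Pfkfb4, a relative known as hypoxia-inducible and common in tumour cells, passed the threshold in no comparison of tumour with LP. MHCIIhi macrophages had 34.7, 38.5 and 34.6 RPKM in LP and 21.2, 27.6 and 30.4 RPKM in tumours, which did not overlap (log2 fold change -0.46, 95% interval -0.87 to -0.05, adjusted p = 0.115). MHCIIlow macrophages had 31.1, 27.0 and 25.7 RPKM in LP and 18.6, 29.0 and 18.7 RPKM in tumours (-0.37, adjusted p = 0.204). Monocytes had 21.7, 24.7 and 27.2 RPKM in LP and 24.3, 24.3 and 22.0 RPKM in tumours (-0.05, adjusted p = 0.922). Apart from the MHCIIhi macrophages, the tissues overlapped. In neutrophils the range was 58.7 to 82.9 RPKM in LP and 57.5 to 99.7 RPKM in tumours (0.17, adjusted p = 0.538).

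Pfkfb2, the member known from heart, was low throughout, between 0.0115 and 0.905 RPKM. It had 27 to 272 reads per library except LP neutrophils IV, with 1 read, and tumour neutrophils II, with 2 reads. Its highest group mean was 0.595 RPKM, in tumour MHCIIhi macrophages, under the filter of 1. Of its transcript stretches of read length, 17.3% also occur in other genes (Gm29427 and Yod1, the latter on the opposite strand), so reads of these genes may not be told apart. For the other members the share was at most 1.51%.

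**Figure D3:**
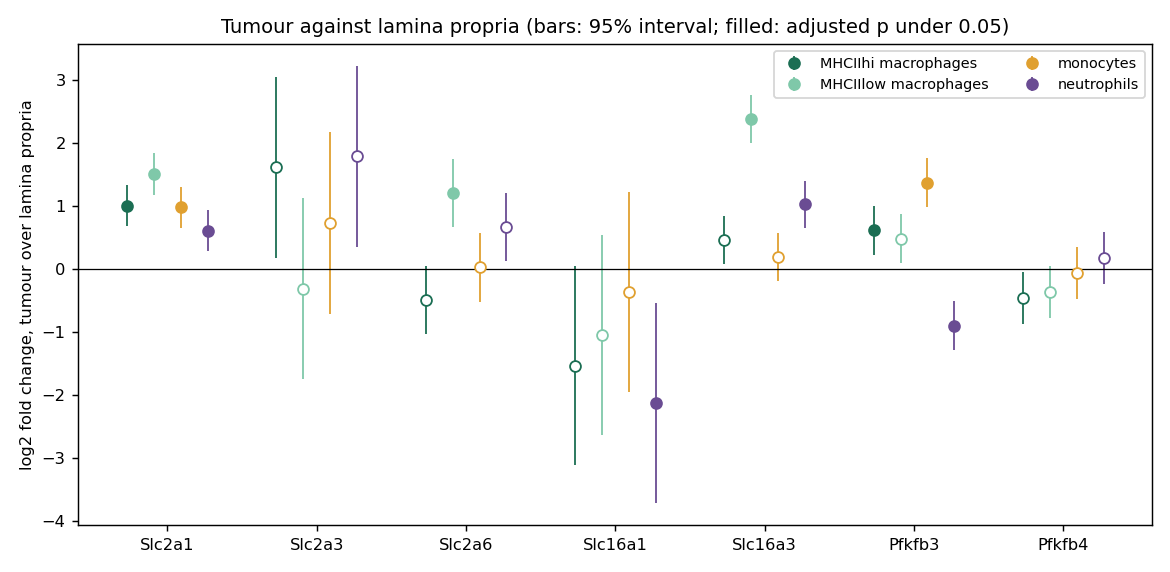
log2 fold change of tumour over LP for the 7 members tested in the 4 populations, with 95% intervals from limma and filled points where the adjusted p was under 0.05. Slc2a1 is above 0 and filled in all 4, from 0.61 in neutrophils to 1.51 in MHCIIlow macrophages, whereas Pfkfb3 is at 1.38 in monocytes and -0.90 in neutrophils.

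Counted over the 7 members tested, tumour against LP called 2 higher and 0 lower in MHCIIhi macrophages, where 8.01% of all 12878 genes tested were called higher and 11.5% lower. In MHCIIlow macrophages 3 were called higher and 0 lower, against 11.5% and 11.8% of all genes. In monocytes 2 were called higher and 0 lower, against 4.86% and 4.43%. In neutrophils 2 were called higher and 2 lower, against 13.1% and 19.0%. For the effect in MHCIIlow minus that in MHCIIhi macrophages, 2 were called higher and 0 lower, against 1.13% and 0.326% of all genes. For neutrophils minus monocytes, 1 was called higher and 1 lower, against 3.61% and 5.50%, and for macrophages minus monocytes also 1 and 1, against 3.55% and 5.64%. The median log2 fold change of the 7 was 0.46 in MHCIIhi macrophages, 0.48 in MHCIIlow macrophages, 0.19 in monocytes and 0.61 in neutrophils, and over all genes it was 0, 0.06, 0 and -0.12. Comparisons that involve the same libraries are not independent of each other.

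Between the macrophage subsets, MHCIIlow against MHCIIhi called 1 member higher and 0 lower in tumours, where 0.567% of all genes were called higher and 0.567% lower. That member was Slc16a3. In LP it called 0 higher and 2 lower, Slc16a3 and Slc2a6, against 2.13% and 5.57% of all genes. Slc2a6 was lower in LP MHCIIlow than in LP MHCIIhi macrophages by 2.60-fold (log2 fold change -1.38, SE 0.26, adjusted p = 0.00214), and with only the 6 libraries compared the adjusted p was 0.0561.

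Monocytes, the precursors from which many gut macrophages form, had more of 4 members than macrophages. Taking the mean of both macrophage subsets against monocytes, 0 members were called higher and 4 lower in LP, against 12.5% and 17.0% of all genes, and 0 higher and 4 lower in tumours, against 16.8% and 21.4%. Slc16a3 was lower in macrophages by 16.1-fold in LP (log2 fold change -4.01, SE 0.16, adjusted p = 3.6e-13) and 6.85-fold in tumours (-2.78, SE 0.16, adjusted p = 4.34e-11). Slc2a6 was lower by 5.70-fold in LP and 4.53-fold in tumours, and Slc2a1 by 3.34-fold and 2.75-fold. Pfkfb3 was lower by 2.40-fold in tumours (-1.26, SE 0.16, adjusted p = 2.92e-06). In LP its change of -0.43 (SE 0.16, adjusted p = 0.0486) was near the threshold and was called in 9 of 22 alternatives. It was lost without LP MHCIIhi III, IV or V, LP MHCIIlow III or IV, LP monocytes III, IV or V, or tumour neutrophils II (-0.50 to -0.31, adjusted p = 0.054 to 0.248), and also with no filter, quantile normalization, centring on the median or summed reads (-0.46 to -0.18, adjusted p = 0.0597 to 0.438).

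Neutrophils had more of 6 members and less of 1 than monocytes in either tissue. The counts were 6 higher and 1 lower in LP, against 24.1% and 30.4% of all genes, and 6 higher and 1 lower in tumours, against 23.3% and 34.9%. Slc2a3 had the widest gap, 384-fold in LP (log2 fold change 8.58, SE 0.69, adjusted p = 3.47e-09) and 800-fold in tumours (9.64, SE 0.69, adjusted p = 4.95e-10). Without LP monocytes IV the LP value was 7.84, and over all libraries left out in turn it was 7.84 to 9.17 in LP and 9.17 to 10.0 in tumours. Slc2a6 was 13.1-fold and 20.5-fold higher, and Slc16a3 5.08-fold and 9.10-fold higher. Slc16a1 was the member that was lower in neutrophils, by 6.48-fold in LP (-2.70, SE 0.76, adjusted p = 0.00534) and 22.1-fold in tumours (-4.46, SE 0.76, adjusted p = 4.6e-05). The tumour value includes the library with 2 reads, tumour neutrophils II, and without it the log2 fold change was -2.89 (adjusted p = 3.11e-07). Without tumour neutrophils I or V it was -5.32 or -5.17. Pfkfb4 was 2.76-fold higher in LP and 3.23-fold higher in tumours.

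These neutrophil values depend on how libraries were scaled. The library sizes behind the deposited values were 0.466 to 0.682 of the summed reads in neutrophils and 0.981 to 1.51 of them in the other libraries. With summed reads as sizes, the median log2 fold change of all genes between neutrophils and monocytes moved from -0.24 to -1.05 in LP and from -0.36 to -1.42 in tumours. In LP the 6 members higher in neutrophils stayed higher and called under each of 4 scalings, and Slc16a1 stayed lower. In tumours Slc2a1 (1.13, SE 0.16, adjusted p = 4.27e-06) and Pfkfb3 (0.74, SE 0.19, adjusted p = 0.00199) turned: Slc2a1 was at -0.26 with quantile normalization and at -0.0038 with summed reads (adjusted p = 0.154 and 0.982), and Pfkfb3 at -0.22 and -0.39 (adjusted p = 0.353 and 0.0865).

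**Figure D4:**
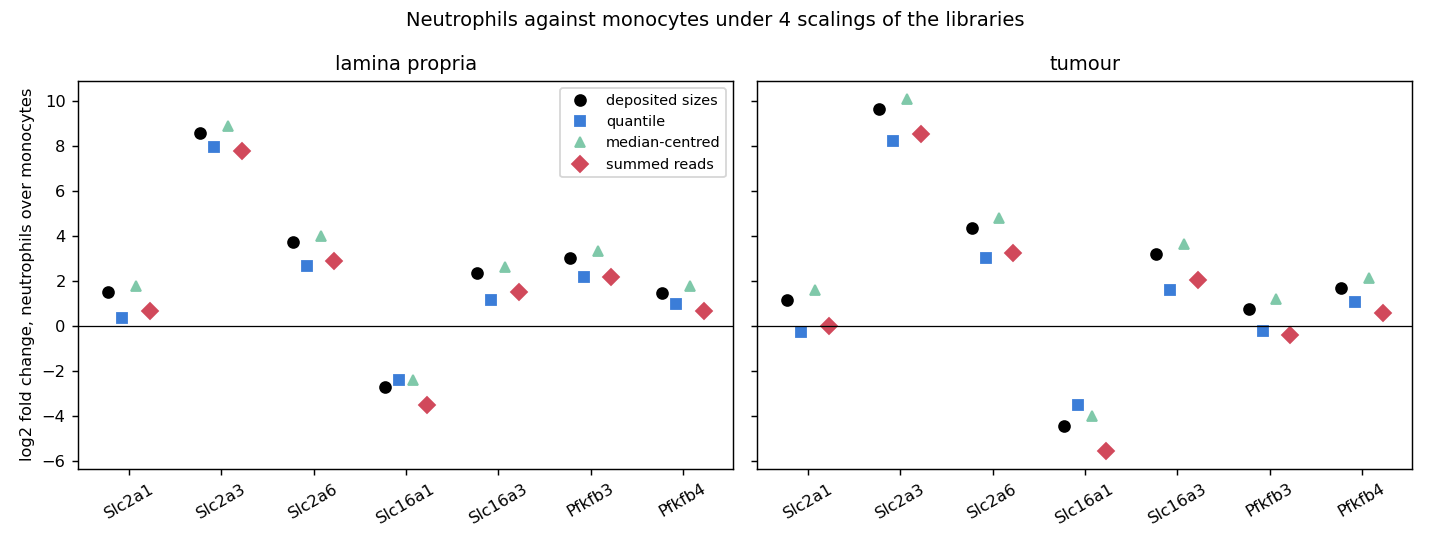
log2 fold change of neutrophils over monocytes for the 7 members in LP (left) and tumours (right), with the deposited library sizes, quantile normalization, libraries centred on their median, and summed reads as sizes. Slc2a3, Slc2a6, Slc16a3 and Pfkfb4 stay above 0 and Slc16a1 below 0 in all 8 points each, whereas Slc2a1 and Pfkfb3 fall to or below 0 in tumours under quantile normalization and summed reads.

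Ordered by level over the 8 groups, Slc2a1, Slc2a3, Slc2a6 and Slc16a3 had tumour neutrophils first and LP neutrophils second, and each of these steps separated every library on the deposited scale. For Slc2a1 tumour monocytes came next (tumour neutrophils over tumour monocytes was 1.13 on the log2 scale but -0.26 with quantile normalization and -0.0038 with summed reads), above LP monocytes in every library, whereas LP monocytes overlapped tumour MHCIIlow macrophages and these overlapped tumour MHCIIhi macrophages. For Slc16a3 and Slc2a6 the monocytes of the tissues overlapped, and both lay above all macrophages. Below neutrophils, the 6 other groups of Slc2a3 each overlapped the next in order. Pfkfb3 alone had LP neutrophils first, then tumour neutrophils and tumour monocytes, with no overlap between neighbours on the deposited scale, although the step between the last of these turned to -0.22 with quantile normalization and -0.39 with summed reads, and then tumour MHCIIhi macrophages, which overlapped LP monocytes. For Pfkfb4 the neutrophils of the tissues overlapped at the top. Slc16a1 was highest in LP monocytes, overlapping with LP MHCIIhi macrophages, and lowest in tumour neutrophils.

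The other genes of the pathway were 18 glycolytic enzymes, 18 further transporters of the Slc2a and Slc16a families with their chaperones, of which 7 were tested, and 4 further fructose phosphate enzymes, of which 2 were tested. Tumour against LP called 7 glycolytic enzymes higher and 3 lower in MHCIIhi macrophages, 12 higher and 3 lower in MHCIIlow macrophages, 9 higher and 0 lower in monocytes, and 13 higher and 0 lower in neutrophils. The shares of all genes called higher and lower were 8.01% and 11.5%, 11.5% and 11.8%, 4.86% and 4.43%, and 13.1% and 19.0% in the same order. Their median log2 fold change was 0.39, 1.18, 0.68 and 0.78 in that order. The largest rises in MHCIIhi macrophages were Pfkm (2.73, adjusted p = 0.0224) and Pfkl (1.52, adjusted p = 1.01e-06), which code for phosphofructokinase subunits. Mean levels in LP and tumour were 0.36 and 2.48 RPKM for Pfkm, near the filter of 1, and 10.7 and 30.5 RPKM for Pfkl. Pfkm was also among the 13 called in neutrophils (6.47), although both neutrophil means, 0.00825 and 0.631 RPKM, lay under that filter. The largest falls in MHCIIhi macrophages were hexokinase Hk1 (-2.25, adjusted p = 9.83e-07) and the phosphofructokinase Pfkp (-1.62, adjusted p = 9.83e-07). In MHCIIlow macrophages the lactate dehydrogenase Ldhb (3.40, adjusted p = 2.49e-05) and the aldolase Aldoc (2.21, adjusted p = 0.00135) rose most, and the hexokinases Hk1 (-1.98, adjusted p = 3.74e-06) and Hk3 (-1.02, adjusted p = 0.000164) fell most.

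**Figure D5:**
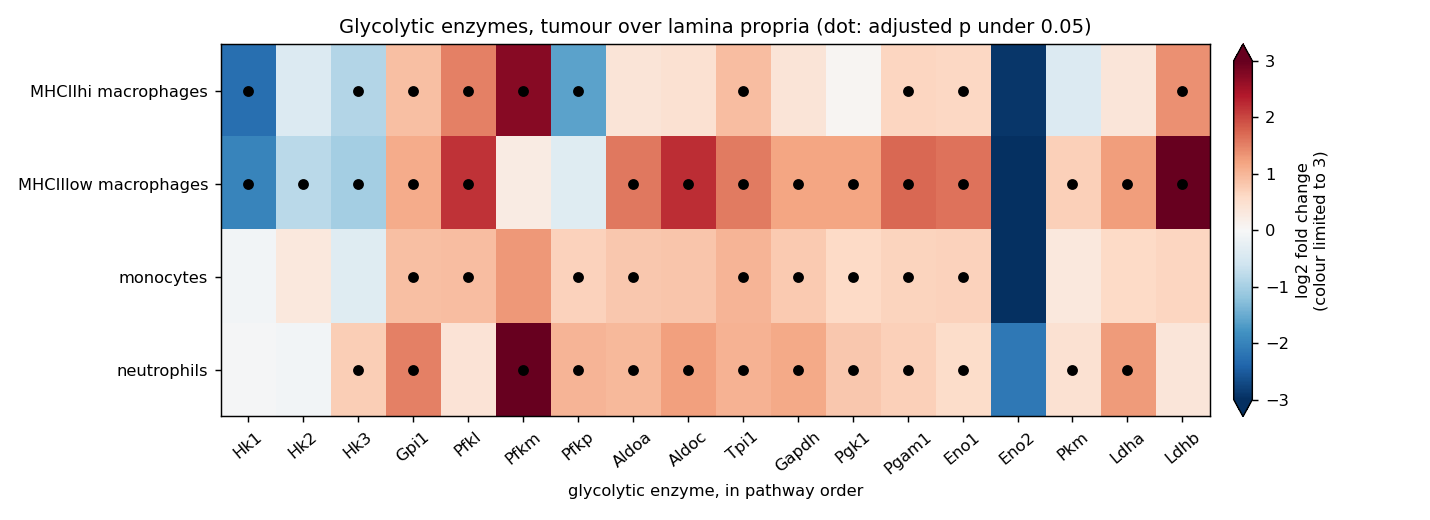
log2 fold change of tumour over LP (colour, red for higher in tumour and blue for lower) for 18 glycolytic enzymes in pathway order and 4 populations, with dots where the adjusted p was under 0.05. MHCIIlow macrophages have 12 red dots from Gpi1 to Ldhb and 3 blue dots at the hexokinases, and monocytes and neutrophils have 9 and 13 red dots and no blue ones.

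In tumours, MHCIIlow macrophages had 7 of the 18 enzymes higher than MHCIIhi macrophages and 0 lower, against 0.567% of all genes in either direction, with Aldoa (1.05, adjusted p = 0.0101) and Pgk1 (1.03, adjusted p = 0.0043) the largest rises. Over all genes this comparison had 146 calls, which fell to 4 with only the 6 libraries compared and to 31 without tumour MHCIIlow V, so at most 4 enzymes can be called in the former. In LP the counts were 0 higher and 1 lower, against 2.13% and 5.57% of all genes. The tumour effect was larger in MHCIIlow than in MHCIIhi macrophages for 6 enzymes and smaller for 0, against 1.13% and 0.326% of all genes, with a median difference of 0.85, against 0.06 over all genes.

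Of the 7 other transporters and chaperones tested, 1 was higher and 1 lower in tumour MHCIIhi macrophages, 3 higher and 0 lower in MHCIIlow macrophages, 1 and 0 in monocytes, and 1 and 0 in neutrophils. The shares of all genes called higher and lower were 8.01% and 11.5% in MHCIIhi macrophages and 11.5% and 11.8% in MHCIIlow macrophages. In monocytes they were 4.86% and 4.43%, and in neutrophils 13.1% and 19.0%. Beside the shares in MHCIIhi macrophages and neutrophils, a single call among 7 genes is near the background. The monocarboxylate carrier Slc16a6 was higher in tumour MHCIIhi (0.96, adjusted p = 0.000622) and MHCIIlow macrophages (1.46, adjusted p = 5.02e-06). Emb codes for embigin, a membrane protein that brings monocarboxylate transporters to the cell surface. It was lower in tumour than in LP MHCIIhi macrophages (-0.82, SE 0.14, adjusted p = 0.000267) and higher in tumour than in LP MHCIIlow macrophages (1.12, SE 0.14, adjusted p = 6.17e-06). Its mean level was 125 and 71.0 RPKM in LP and tumour MHCIIhi macrophages, and 45.3 and 97.6 RPKM in LP and tumour MHCIIlow macrophages. The difference of its tumour effects, singled out after its values were seen, was 1.94 (SE 0.20, adjusted p = 6.41e-05), beside 1.92 for Slc16a3. Of the 2 other fructose phosphate enzymes tested, 0 were called in macrophages or monocytes, and Fbp2, also singled out after its values were seen, was called higher in tumour neutrophils (6.07, SE 2.02, adjusted p = 0.0264). Its mean level was 0.182 RPKM in LP and 3.34 RPKM in tumour neutrophils, so the size of that change rests on very low LP values.

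Genes with the profile most like each member were ranked by Pearson's r over the 24 libraries among 10741 protein-coding genes. The libraries of a group share their cell type, so these values mostly describe differences between the 8 groups. Slc16a3 was most like Trem1 (r = 0.99), a receptor of neutrophils and monocytes, Fpr2 (r = 0.99), a formyl peptide receptor, and Arg2 (r = 0.99), a mitochondrial arginase. Slc2a1 was most like Coro1a (r = 0.98), a leukocyte actin regulator, AB124611 (r = 0.98) and the glycogen phosphorylase Pygl (r = 0.98). Slc2a3 was most like Ccni (r = 0.98), Kpna4 (r = 0.98) and Krt86 (r = 0.97), and Slc2a6 was most like Unc45a, Lmnb1 and Fam107b (r = 0.98 each). Pfkfb3 was most like Clk4, Lcp2 and Nudt18 (r = 0.96 each), Pfkfb4 like Cd300ld (r = 0.95), Rnf167 (r = 0.94) and Tgoln1 (r = 0.93), and Slc16a1 like Ext1 (r = 0.95), Phf11a (r = 0.94) and Ufm1 (r = 0.93).

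Among the members, Slc16a3 and Slc2a1 had r = 0.97 over the 24 libraries and r = 0.91 over the 18 libraries other than neutrophils. Slc16a3 and Slc2a6 had r = 0.96 and r = 0.91. Pfkfb4 and Slc2a1 had r = 0.57 over all libraries and r = -0.57 without neutrophils, and Slc16a1 and Slc2a6 had r = -0.62 and r = 0.52. For these last pairs the sign differed with and without neutrophils.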

How the data were processed

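RNA of 24 sorted and pooled samples was sequenced after modified SMARTSeq v2 amplification. Per the submitters' processing notes, STAR 2.3, featureCounts 1.5 and edgeR were used, with GRCm38/mm10 and GENCODE genes. Genes with few reads in all populations were dropped, and the authors deposited log2 RPKM values. These values contain 0.25 added reads per gene, and their library sizes were rescaled. Whole reads were recovered for 17301 of 17301 genes (100% of values within 0.02 of a whole read) and served for depth and for voom.

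Groups were compared with limma 3.58.1 (R 4.3.3; lmFit, contrasts.fit, eBayes with a trend) on the deposited log2 RPKM, with 8 group means, 13 comparisons and 12878 genes whose mean reached 1 RPKM in a group. P values were adjusted by Benjamini-Hochberg within a comparison, with a threshold of 0.05. Scripts were tested on simulated data. Alternatives were pseudocounts of 1 and 0.1, no filter, a filter at 5 RPKM, quantile normalization, median centring, arrayWeights, voom, only the libraries compared, the pool number as a replicate block, and leaving out each library. Library sizes as summed reads, and leaving tumour neutrophils II out of every comparison, were added after seeing the data. Since the labels name the pool number as a donor, it pairs libraries of the same tissue. Over 29 such pairs, deviations from the group means correlated at r = -0.066 to 0.255 (median 0.0169).

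The members, gene lists and comparisons were chosen with earlier results of these data known. All members were named, and of the pathway lists the called genes with the 2 largest rises and the 2 largest falls per list in tumour against LP macrophages and in tumour MHCIIlow against MHCIIhi macrophages. The 3 most similar genes per member excluded predicted genes. Figures and tables used python 3.11.15, numpy 2.4.6, pandas 2.3.3 and matplotlib 3.10.9.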

Additional observations from a re-analysis of the deposited data

Results flagged for a closer look

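The effect of the tumour, meaning the log2 fold change of tumour over LP, differed between populations for 3 members, with 6 differences past the threshold in limma's test of the difference itself. For Slc16a3 it was larger in MHCIIlow than in MHCIIhi macrophages by 1.92 (adjusted p = 0.000616). For Slc2a6 the same difference was 1.70 (adjusted p = 0.0246). For Slc16a3 the effect was also larger in the mean of macrophages than in monocytes, by 1.23 (adjusted p = 0.00111), and larger in neutrophils than in monocytes, by 0.84 (adjusted p = 0.0442). The macrophage mean joined 2.38 in MHCIIlow and 0.46, not called, in MHCIIhi macrophages. For Pfkfb3 the effect in neutrophils minus that in monocytes was -2.27 (adjusted p = 4.27e-05), with every tumour library above LP in monocytes and every tumour library below LP in neutrophils. The effect on Pfkfb3 in macrophages minus that in monocytes was -0.83 (adjusted p = 0.0254). These differences share the monocyte and macrophage libraries and are not independent. Groups of 3 libraries are too small for a test of single outlying libraries, and no data outside the comparisons gave a further value.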

How the results depend on the processing

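Of the 42 member calls, 28 were made in every alternative, and 2 changed direction in an alternative. Over the 59 member results reported, 1149 alternative values were computed, of which 1047 kept direction and side of the threshold. With the replicate block as a fixed or random term, none of the 73 values for called members lost its call, and the count in tumour MHCIIlow against MHCIIhi macrophages stayed at 1.

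The number of members called moved by more than 1.5 times as follows, and the cause was not tested. In tumour against LP MHCIIhi macrophages the 2 calls became 4 with quantile normalization, 1 with median centring, 6 with arrayWeights, and 1 to 3 with a library left out. In neutrophils the 4 became 1 with quantile normalization. In MHCIIlow against MHCIIhi macrophages, the 1 call in tumours and the 2 in LP became 0 with only the libraries compared, and the tumour count was 0 to 1 with a library left out. Of the 2 calls in the difference of tumour effects, MHCIIlow minus MHCIIhi macrophages, 1 was left with only the libraries compared and 1 to 2 with a library left out. For neutrophils minus monocytes the 2 became 1 with no filter, quantile normalization or arrayWeights, and 1 to 2 with a library left out. For macrophages minus monocytes the count was 1 to 2 with a library left out. With summed reads as library sizes, Pfkfb3 lost its call in macrophages minus monocytes (-0.60, adjusted p = 0.124). Slc16a3 lost its call in neutrophils minus monocytes with the same sizes (0.53, adjusted p = 0.138).

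The sign changed in 14 values. Between tumour neutrophils and monocytes, Slc2a1 was -0.26 with quantile normalization and -0.0038 with summed reads, and Pfkfb3 was -0.22 and -0.39. In tumour against LP monocytes, Slc2a6 was -0.13 with summed reads and -0.22 to 0.32 with a library left out, Pfkfb4 was 0.031 with median centring and -0.14 to 0.023 with a library left out, and Slc2a3 was -0.014 to 1.32. In neutrophils Pfkfb4 was -0.29 with summed reads and -0.023 to 0.37 with a library left out, and in MHCIIlow macrophages Slc2a3 was -0.73 to 0.45. Apart from the comparison of tumour neutrophils with monocytes, these changes were called in no alternative.

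Summed reads as library sizes moved the share of higher calls among all genes from 40.8% to 16.3% in tumour against LP neutrophils, from 27.6% to 64.1% in LP MHCIIlow against MHCIIhi macrophages, and from 40.0% to 15.7% in tumour neutrophils against monocytes. Slc16a1 in tumour neutrophils II, and Pfkfb2 there and in LP neutrophils IV, were all at or under 2 reads. Those libraries held 17.5 and 19.7 M reads on genes. Tumour neutrophils V held 15.9 M, with 46 reads of Slc16a1 and 27 of Pfkfb2. The cause of the low counts was not tested. With 3 libraries per group, an interval on a difference is wide, and a value that missed the threshold was not shown to be equal.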
